A study of Mus musculus with 6 samples.

Results

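Aminoacyl-tRNA synthetases are the enzymes that join each amino acid to its tRNA, the step that supplies every ribosome with charged tRNA. The set described here holds 36 genes, 20 whose products work in the cytosol and 16 mitochondrial forms, recognised by symbols that end in 2. Members were listed by symbol. Of the 36 genes 35 had at least 1 annotated probe, Mars under its current symbol Mars1 and Dars with none, and these 35 genes had 77 of the 45281 probes on the array. A gene was kept when at least 1 of its probes had a detection p-value under 0.05 on at least 3 of the 6 arrays, which left 28 of 9978 genes, 16 cytosolic and 12 mitochondrial.

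The tissue was tibialis anterior, a shin muscle made up largely of fast fibres, from male mice at 3 months of age. Wild-type animals gave 3 samples, and animals labelled as transgenic for PGC-1β, a coactivator of transcription best known for driving mitochondrial genes, gave the other 3. Every sample had its own 1-colour Illumina Mouse WG-6 v2 array. The promoter that drives the transgene, the founder line, the strain and whether each array is a separate animal are not given in the sources used here, so the error behind each p-value is that between arrays and could be purely technical. The question is how the charging enzymes of the cytosol and of the mitochondrion differed between the genotypes.

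In the cytosol most amino acids have a synthetase of their own. Of the 20 listed cytosolic synthetases 8 are known members of a multisynthetase complex held together by the scaffold proteins AIMP1, AIMP2 and EEF1E1. The mitochondrion translates its own few mRNAs and uses a separate set of nuclear-encoded synthetases, so muscle carries a cytosolic and a mitochondrial gene for most amino acids. Gars and Kars are exceptions in mammals: each gene makes both the cytosolic and the mitochondrial enzyme. Eprs encodes a single protein that charges glutamate and proline, and Farsa and Farsb encode the subunits of the cytosolic phenylalanine enzyme. The transcription factor ATF4, the effector of the integrated stress response, is known to raise many cytosolic synthetase genes through a composite element that it binds together with C/EBP proteins.

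Promoter sequence was taken from RefSeq (GRCm38.p6), from 250 bases before to 50 after the start site, and 26 of the members were matched. The sequences below show the 3 members whose promoter held the composite element TGATGNAAT on either strand, together with Tars, whose fall was the largest under the reported processing. Capitals mark every match to that element, to the interferon-gamma activated site TTCNNNGAA and to the NRF-1 motif, which is GCGCA, any base, then GCGC. The Aars window is chr8:111033592-111033891 on the plus strand, that of Gars chr6:55037751-55038050 on the plus strand, that of Iars chr13:49681880-49682179 on the plus strand and that of Tars chr15:11399609-11399908 on the minus strand.
Aars: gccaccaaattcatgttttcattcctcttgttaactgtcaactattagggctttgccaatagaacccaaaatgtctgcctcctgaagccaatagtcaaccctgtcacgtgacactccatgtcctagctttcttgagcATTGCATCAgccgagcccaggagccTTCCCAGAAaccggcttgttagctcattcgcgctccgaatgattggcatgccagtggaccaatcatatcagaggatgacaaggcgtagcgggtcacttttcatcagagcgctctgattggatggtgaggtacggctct
Gars: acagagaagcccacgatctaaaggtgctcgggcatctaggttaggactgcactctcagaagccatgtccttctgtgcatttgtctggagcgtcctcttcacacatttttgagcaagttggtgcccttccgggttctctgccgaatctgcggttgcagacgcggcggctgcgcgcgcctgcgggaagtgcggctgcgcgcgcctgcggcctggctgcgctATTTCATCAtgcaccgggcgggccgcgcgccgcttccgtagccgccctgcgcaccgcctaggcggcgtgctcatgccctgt
Iars: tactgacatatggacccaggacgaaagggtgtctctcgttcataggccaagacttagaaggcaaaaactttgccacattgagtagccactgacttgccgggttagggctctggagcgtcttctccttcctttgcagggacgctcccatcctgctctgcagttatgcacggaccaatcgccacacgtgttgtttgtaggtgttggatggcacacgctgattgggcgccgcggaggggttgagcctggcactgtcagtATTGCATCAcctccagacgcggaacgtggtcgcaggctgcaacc
Tars: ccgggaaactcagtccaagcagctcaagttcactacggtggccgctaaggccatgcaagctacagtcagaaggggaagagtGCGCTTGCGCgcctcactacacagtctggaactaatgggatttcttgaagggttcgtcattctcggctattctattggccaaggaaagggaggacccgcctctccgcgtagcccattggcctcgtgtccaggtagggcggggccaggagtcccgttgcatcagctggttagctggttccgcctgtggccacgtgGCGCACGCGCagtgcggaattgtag

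The composite element was found in 3 of 12 cytosolic promoters (25%) and 0 of 14 mitochondrial ones, against 1.08% of 27025 genes with a promoter in the table. Aars and Iars share the letters ATTGCATCA, which begin 113 bases before the start site in Aars and 7 bases after it in Iars, while Gars has ATTTCATCA beginning 31 bases before the start. The activated site TTCCCAGAA lies in the Aars window, and sites of this kind were found in 2 of 12 cytosolic and 1 of 14 mitochondrial promoters, against 9.55% of all genes. NRF-1 motifs were found in 3 cytosolic promoters, those of Farsb, Kars and Tars, and in 2 mitochondrial ones, those of Iars2 and Mars2, against 5.19% of all genes. The element of the estrogen-related receptors, TNAAGGTCA, through which PGC-1 coactivators are known to act, was in 0 member promoters and in 1.43% of all genes. All 4 motifs were searched on both strands, and the matches overlapped in no printed promoter. A match describes these letters only.

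Some facts about the arrays bear on every value below. The signal of Ppargc1b, which encodes PGC-1β, was lower and not higher on the arrays labelled transgenic, by 1.32 on the log2 scale (SE 0.21, limma adjusted p = 0.000734, 3 arrays per group; exact two-sided permutation p = 0.1, the smallest that 3 against 3 allow), so each direction rests on the labels alone. Detected probes numbered 15338 to 15691 on the wild-type arrays and 17525 to 17604 on the arrays labelled transgenic. Muscle markers were bright in both groups, but 7 of 16 fell and 1 rose at an adjusted p under 0.05 in limma. Of all genes 28.2% fell and 28.1% rose, which is the share to set beside each marker count here. Summed muscle marker signals were 310475 to 317116 in wild type and 240209 to 242889 on the arrays labelled transgenic. With arrays scaled to the median of probes detected on all arrays 14 muscle markers fell, where 2957 of all 9978 genes fell. Macrophage markers rose in 18 of 19 genes, or 15 of the 16 detected on all 6 arrays, from sums of 7161 to 7794 to sums of 32308 to 52036. Fibroblast and matrix markers rose in 13 of 15, from sums of 17269 to 18046 to sums of 31668 to 39710. Of the defining markers, Itgam and Postn were not above background on any array. The part of these marker differences in the synthetase results was not tested, and in whole-muscle RNA fewer cells of a type and less RNA per cell cannot be told apart.

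Cytosolic synthetases were mostly lower on the arrays labelled transgenic, and mitochondrial forms were not. Among the 16 cytosolic genes 9 fell, 1 rose and 6 did not pass, at an adjusted p under 0.05 in limma over all genes, where 56.3% of all 9978 genes passed, 28.2% falling and 28.1% rising. Among the 12 mitochondrial genes 0 fell, 2 rose and 10 did not pass. The median log2 change was -0.40 for the cytosolic genes, 0.08 for the mitochondrial genes and -0.03 for all genes. Of the 28 members 27 were detected on all 6 arrays, so the filter admitted none of those through 1 group alone.

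**Figure D1:**
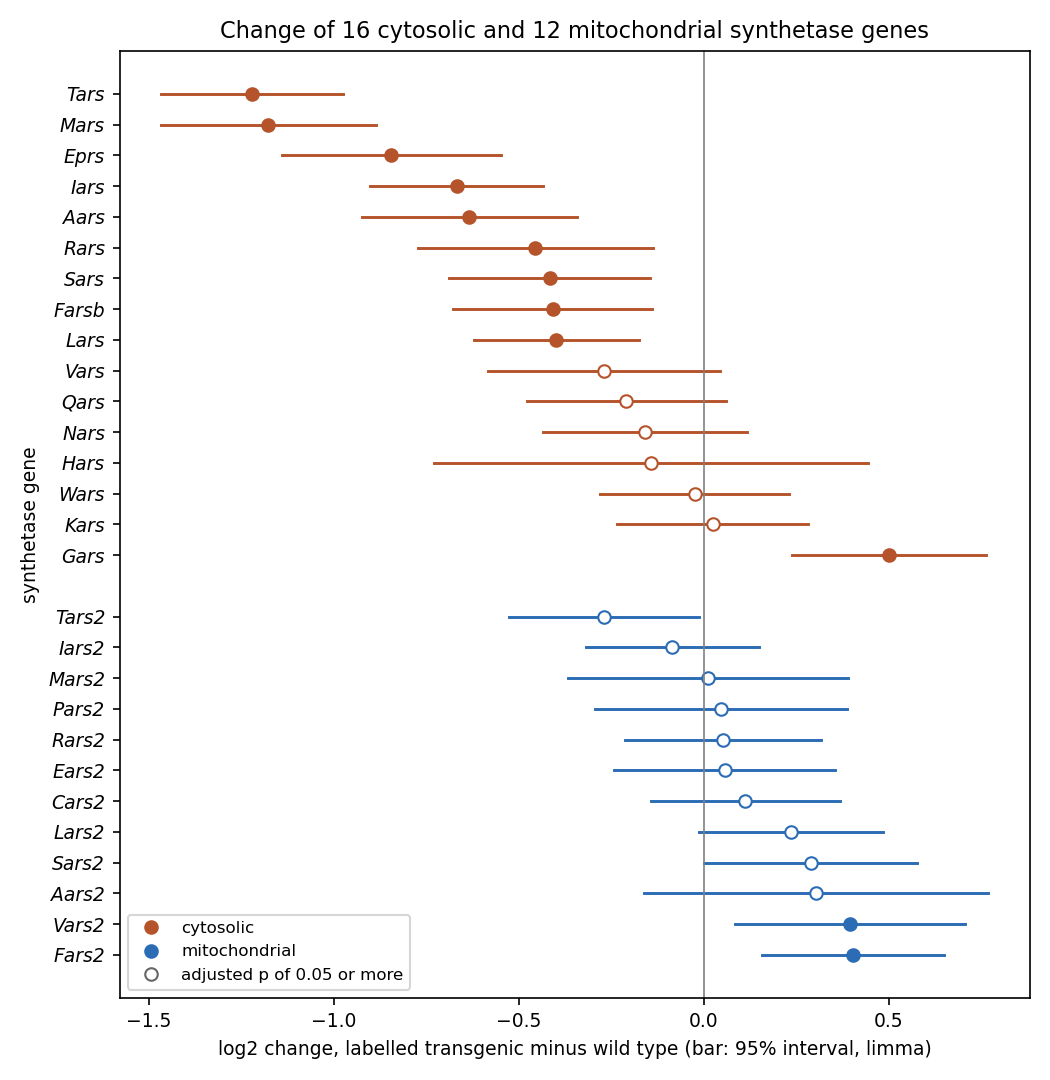
Log2 change of each measured synthetase gene, labelled transgenic minus wild type, with its 95% interval from limma. Filled points passed an adjusted p of 0.05. The 9 filled points left of 0 are all cytosolic, and Gars, Fars2 and Vars2 are the filled points to the right.

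Expressed per array as the median over members of log2 signal minus each gene's wild-type mean, the cytosolic genes stood at -0.02, -0.03 and 0.07 on the wild-type arrays and at -0.31, -0.39 and -0.41 on the arrays labelled transgenic. The 2 groups did not overlap. The same value for the mitochondrial genes was -0.02, -0.01 and 0.02 in wild type against 0.06, 0.04 and 0.24, also without overlap but with a gap of only a few hundredths between the nearest arrays.

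Large falls were found for the threonine and methionine enzymes of the cytosol, whose order depended on the processing. Tars, the threonyl-tRNA synthetase, had log2 signals of 6.70, 6.79 and 6.86 in wild type compared with 5.47, 5.63 and 5.59 on the arrays labelled transgenic. All 3 labelled transgenic values lay more than 1 log2 unit below every wild-type value, and the change was -1.22 (SE 0.11, adjusted p = 3.07e-05). The Tars change was -0.70 with no background correction and -1.58 with the authors' processed values, so its size depended on the handling of background. Before normalization Tars was dim, at 145.7, 146.4 and 151.4 on wild-type arrays against 107.1, 112.9 and 101.4. The median signals of the arrays were 73.3 to 78.8. Mars, the methionyl-tRNA synthetase that also charges the initiator tRNA, read 9.77, 9.64 and 9.72 in wild type against 8.36, 8.50 and 8.74. Its change was -1.18 (SE 0.13, adjusted p = 9.13e-05), with no overlap, and its second probe gave -1.19. With no background correction Mars was at -1.07, further down than Tars. Before normalization Mars read 902.2, 786.8 and 809.1 on wild-type arrays against 444.2, 458.8 and 466.7, so the difference was present before any scaling. The Tars promoter above holds a pair of NRF-1 motifs, and that of Mars held none of the 4 motifs.

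The bifunctional enzyme and the isoleucine and alanine enzymes fell as well. Eprs read 8.72, 8.38 and 8.66 in wild type against 7.69, 7.66 and 7.87, a change of -0.84 (SE 0.13, adjusted p = 0.000654). A second Eprs probe fell by 0.90, whereas the dimmest of its 3 probes had a change of 0.02 and was not called, so the probes of this gene disagree. Iars read 9.78, 9.74 and 9.77 in wild type against 9.05, 9.05 and 9.19, a narrow spread within each group. It fell by 0.67 (SE 0.10, adjusted p = 0.000657), and its second probe fell by 0.81. Aars read 10.52, 10.71 and 10.53 in wild type against 10.15, 9.81 and 9.90, and fell by 0.63 (SE 0.13, adjusted p = 0.00279). For these genes too every value labelled transgenic lay below every wild-type value.

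Smaller falls were found for 4 more cytosolic genes. Rars, the arginine enzyme, fell by 0.46 (adjusted p = 0.0215), Sars, the serine enzyme, by 0.42 (adjusted p = 0.0163), Farsb by 0.41 (adjusted p = 0.0164) and Lars, the leucine enzyme, by 0.40 (adjusted p = 0.00792). Their groups did not overlap. These calls were close to the threshold for 3 of the 4: Rars did not pass without wild-type replicate 1 (adjusted p = 0.0739) or without transgenic replicate 3 (adjusted p = 0.0637), Farsb without wild-type replicate 1 (adjusted p = 0.0564) or transgenic replicate 2 (adjusted p = 0.0566), and Sars without wild-type replicate 3 (adjusted p = 0.0567). Rars and Sars also did not pass with arrays scaled to the median of all probes (-0.30 and -0.21, adjusted p = 0.172 and 0.255). Lars, at -0.61 when scaling was to detected probes, remained past the threshold in all 16 alternatives, as did Tars, Mars, Eprs, Iars and Aars.

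**Figure D2:**
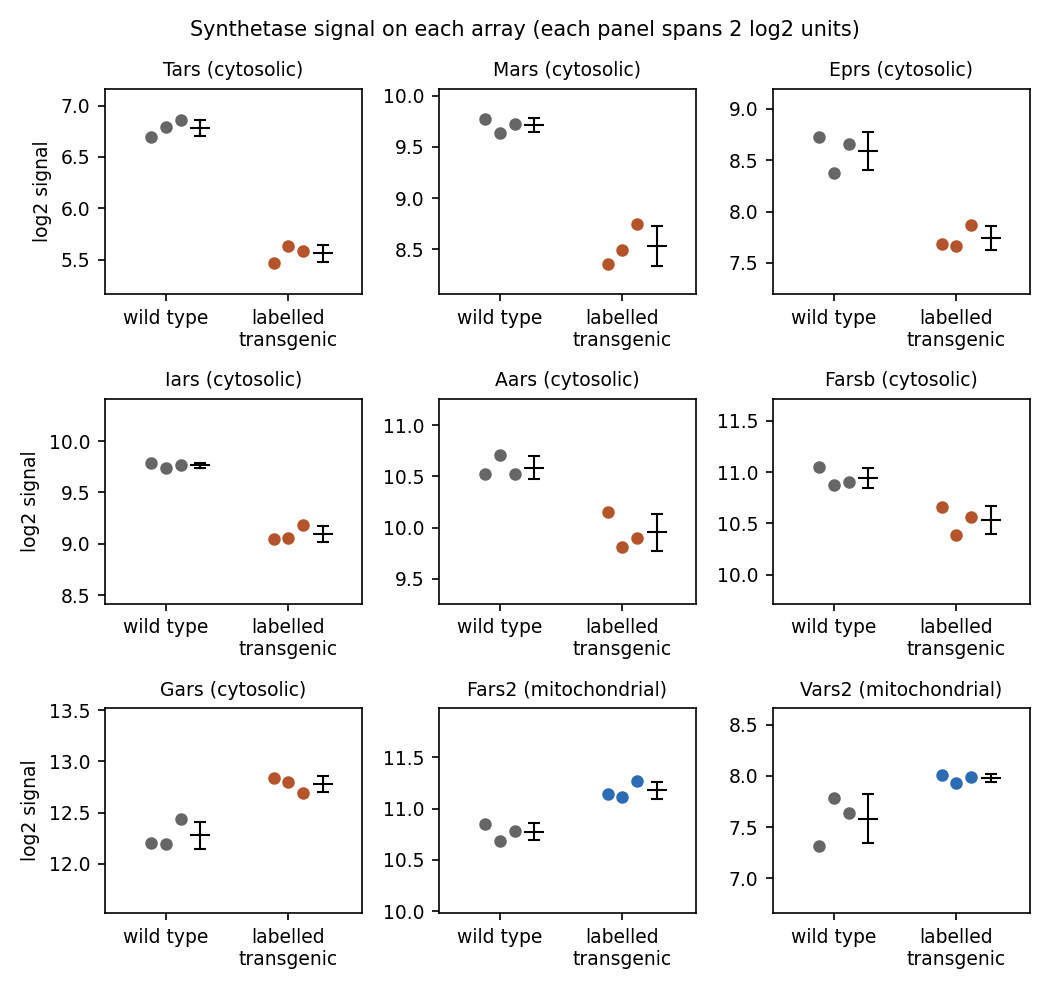
Log2 signal of 9 synthetase genes on each array (points), with the mean and SD of each group of 3 arrays beside them. Wild-type points are grey. The 6 cytosolic genes from Tars to Farsb have every labelled transgenic point below the wild-type points, and Gars, Fars2 and Vars2 have them above.

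Gars, the glycine enzyme and one of the genes that serves both compartments, went the other way. It read 12.21, 12.20 and 12.43 in wild type compared with 12.84, 12.80 and 12.70 on the arrays labelled transgenic, without overlap, and rose by 0.50 (SE 0.11, adjusted p = 0.00561). With arrays scaled to the median of probes detected on all arrays the change was 0.24 and did not pass (adjusted p = 0.12). Kars, the lysine enzyme and the other gene of this kind, had a change of 0.02 (95% interval -0.23 to 0.28, adjusted p = 0.875), and its dimmer probe had a change of -0.34 that did not pass. Among the 14 cytosolic genes without these 2, 9 fell and 0 rose, against 28.2% and 28.1% of all genes.

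The other cytosolic genes that did not pass were Vars, Qars, Nars, Hars and Wars. Vars, the valine enzyme, had a change of -0.27 on its brightest probe (95% interval -0.58 to 0.04, adjusted p = 0.124). Its second probe fell by 0.47 in a fit over all 17166 probes kept (adjusted p = 0.0105). The third was above background on no array labelled transgenic. It was kept only through the wild-type arrays, where it is high, so no size of its change is given. With the mean of the kept probes in place of the brightest, Vars fell by 0.54 (adjusted p = 0.00254), but that mean includes the third probe. Qars, the glutamine enzyme, had changes of -0.21, -0.19 and -0.21 on 3 probes, none of which passed, although the brightest passed, at -0.38 and adjusted p = 0.0255, when scaling was to detected probes. Nars, the asparagine enzyme, had a change of -0.16 (95% interval -0.43 to 0.12).

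Wars encodes the tryptophan enzyme, which is known in mammals as an interferon-gamma-induced gene. Its log2 signals were 8.86, 8.77 and 8.74 in wild type against 8.86, 8.62 and 8.82, and the groups overlapped. The change was -0.02 (95% interval -0.28 to 0.23, adjusted p = 0.869), and the other 3 Wars probes had changes of 0.15, -0.06 and 0.0037. On the same arrays 15 of 16 interferon-gamma-induced genes kept by the filter rose and 0 fell, against 28.1% and 28.2% of all genes. However, Cxcl10 and Ciita were above background on no wild-type array and were kept only through the group where they are high. Of the 13 with a probe detected on all 6 arrays 12 rose and 0 fell. Of the 15 that rose among all 16, Cxcl10, a chemokine gene, was at least 9.32-fold higher and the chemokine gene Cxcl9 rose by 3.36. The guanylate-binding protein gene Gbp3 rose by 1.76 and the antigen presentation gene B2m by 1.73. A bound is given for Cxcl10 because it was above background on no wild-type array, and the bound sets the bright group's mean against the lowest detected signal.

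Hars, the histidine enzyme, was the member nearest the detection limit among those kept. It was detected on 1 wild-type array and 2 arrays labelled transgenic, and its signals before normalization were 77.1, 79.1 and 103.2 on wild-type arrays against 91.1, 91.3 and 82.4. Cars, the cysteine enzyme, was just outside, with its brightest probe detected on 1 array of each group and signals of 73.4, 82.5 and 91.6 against 86.7, 91.4 and 82. The other 6 genes left out had probes detected on at most 1 array: Farsa, Nars2 and Wars2 on 1 array labelled transgenic each, and Yars, Hars2 and Yars2 on 0. Nothing is said of these genes beyond that their probes were near background.

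Mitochondrial forms had changes between -0.27 and 0.40. Fars2, the mitochondrial phenylalanine enzyme, read 10.85, 10.69 and 10.78 in wild type compared with 11.14, 11.12 and 11.27 on the arrays labelled transgenic, and rose by 0.40 (SE 0.11, adjusted p = 0.0119). Its groups did not overlap, but when scaling was to detected probes the change was 0.20 and did not pass (adjusted p = 0.177). Vars2, the mitochondrial valine enzyme, read 7.32, 7.78 and 7.64 in wild type against 8.0, 7.93 and 7.99, again without overlap, and rose by 0.39 (SE 0.14, adjusted p = 0.0352). Its change was 0.68 with arrays scaled to the median of all probes. The Vars2 call was lost without wild-type replicate 1 (change 0.26, adjusted p = 0.108) or 3 (adjusted p = 0.061), without transgenic replicate 1 (adjusted p = 0.0857), 2 (adjusted p = 0.065) or 3 (adjusted p = 0.0733), with the replicate number as a block (adjusted p = 0.054) and with no filter on dim probes (adjusted p = 0.0528).

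The remaining 10 mitochondrial genes had changes between -0.27 and 0.30, none past the threshold. Tars2, the threonine form, had a change of -0.27 (95% interval -0.53 to -0.01, adjusted p = 0.0695), with 7.41, 7.41 and 7.51 in wild type against 7.31, 7.05 and 7.17, which did not overlap. Sars2, the serine form, had a change of 0.29 (adjusted p = 0.0801) and Lars2, the leucine form, 0.24 (adjusted p = 0.0947), each with groups apart. Aars2, the alanine form, had a change of 0.30 with a wide interval from -0.16 to 0.77. It was 0.05 without wild-type replicate 2, and 0.67 and past the threshold (adjusted p = 0.0143) with arrays scaled to the median of all probes. Changes of Cars2, Ears2, Mars2, Pars2 and Rars2 lay between 0.01 and 0.11, and that of Iars2 was -0.09. Over all 28 members 16 had groups that did not overlap, against 63.8% of all genes.

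The forms for the same amino acid could be set against each other within each array, which removes a constant scaling of the array. Quantile normalization depends on the signal and is not removed in this way. There were 11 such pairs with both genes measured, Eprs being used for glutamate and for proline. In all 11 the difference cytosolic minus mitochondrial was lower on the arrays labelled transgenic, by 0.51 (arginine) to 1.19 (methionine) on the log2 scale. With arrays scaled to a median in place of quantile normalization, the changes ran from -1.37 to -0.55. In all 11 the 3 values of one group lay beyond those of the other. That held for 63.8% of single genes, and the share among gene pairs at large was not tested. The pairs reuse the member values counted above. Their cytosolic genes are the 9 that fell and Vars, while Gars, Kars, Wars, Nars, Hars and Qars had no measured partner. The shared direction of the 11 pairs was thus largely set by which cytosolic genes fell, and adds no separate support. Each pair gave an exact two-sided permutation p of 0.1, the smallest possible here, which is also the value after adjustment over the 11 pairs, so no pair can pass a threshold of 0.05 in this test. Pairs that share Eprs are not independent of each other.

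**Figure D3:**
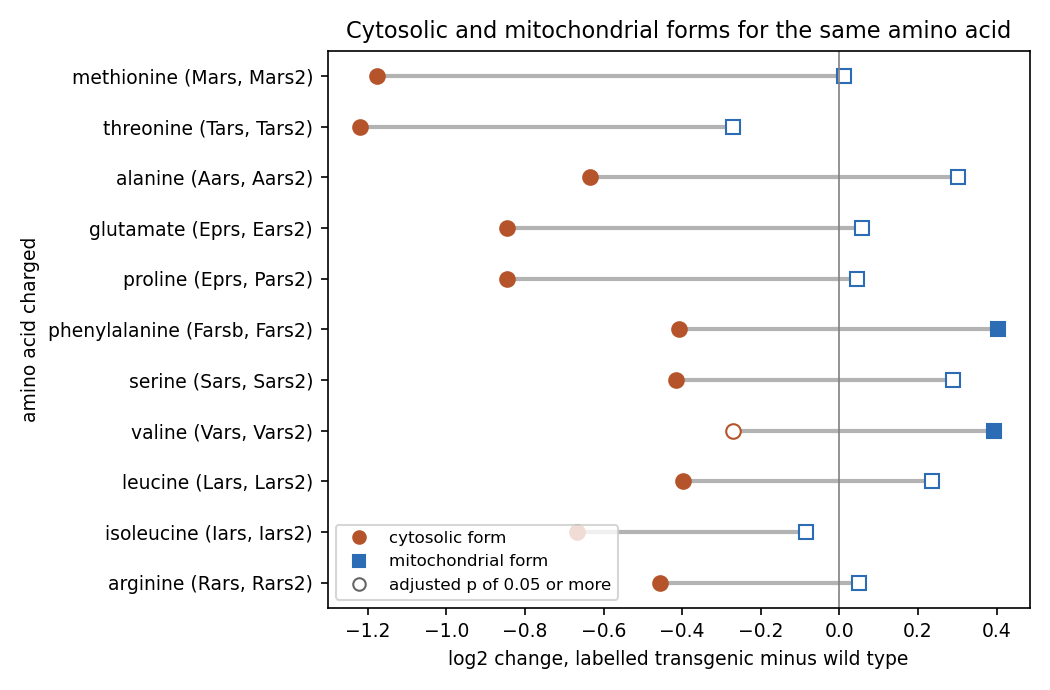
Log2 change, labelled transgenic minus wild type, of the cytosolic (circle) and mitochondrial (square) gene for each amino acid, joined by a line. Filled symbols passed an adjusted p of 0.05. The cytosolic symbol is to the left of the mitochondrial one in all 11 pairs, whose cytosolic genes are the 9 that fell and Vars.

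Phenylalanine was the pair in which both genes passed in opposite directions. Farsb read 11.05, 10.88 and 10.90 in wild type compared with 10.66, 10.38 and 10.56 on the arrays labelled transgenic, while Fars2 rose as given above. The difference of their changes was -0.81 with a 95% half-width of 0.23. For methionine it was -1.19 with a half-width of 0.46, for threonine -0.95 with 0.35, for serine -0.71 with 0.16, for leucine -0.63 with 0.19 and for isoleucine -0.58 with 0.15. For alanine (-0.94 with 0.98) and arginine (-0.51 with 0.54) the half-width was larger than the difference. The sign was kept in 11 of 11 pairs under each of the 16 alternatives, but the arginine difference shrank to -0.33 without transgenic replicate 3.

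Cytosolic genes that fell were found inside and outside the multisynthetase complex and in both structural classes. Of 7 measured enzymes of the multisynthetase complex 5 fell and 0 rose, with a median change of -0.46. Of the 9 outside it 4 fell and 1 rose, with a median of -0.27, and of all genes 28.2% fell. Vars, outside the complex, is counted here by its brightest probe, which did not pass. With the mean of its kept probes it fell by 0.54 (limma adjusted p = 0.00254), but that mean includes a probe kept only through the wild-type arrays. Class I and class II enzymes, the 2 unrelated folds of this family, gave 4 of 7 and 4 of 8 that fell among cytosolic genes. Eprs holds a part of each class and was counted in neither.

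The scaffold genes of the complex were lower as well. Aimp2 fell by 1.75 (adjusted p = 7.43e-06) and Aimp1 fell by 0.43 (adjusted p = 0.00786), while Eef1e1 had a change of -0.19 (adjusted p = 0.215). Other genes of the pathway were counted from lists chosen by function. Among factors that edit or protect charged tRNA or make selenocysteine 3 of 7 fell and 1 rose, against 28.2% and 28.1% of all genes. The editing gene Aarsd1 fell by 1.12, and Dtd2, which removes wrongly attached amino acids, fell by 1.11. Secisbp2, a factor of selenocysteine insertion, fell by 0.72, and Trnt1, which adds the CCA end to tRNAs, rose by 0.74.

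Genes of tRNA processing and modification fell in 10 of 26 cases and rose in 3, a share of 38.5% against 28.2% of all genes. Tsen15, a subunit of the tRNA splicing endonuclease, fell by 0.84, the methyltransferase gene Mettl1 by 0.72 and the processing nuclease gene Elac2 by 0.71, while Pus1, encoding a pseudouridine synthase, rose by 0.82. With arrays scaled to the median of all probes 8 rose and 2 fell, so the balance of this list depended on the scaling. Under that scaling 3766 of all 9978 genes rose and 1606 fell. Cytosolic elongation factors gave 1 rise and 1 fall among 8, or 12.5% each, against 28.1% and 28.2% of all genes. More than 1 of them fell in 7 of the 16 alternatives, with 4 falls when scaling was to detected probes and 2 without wild-type replicate 2. Eef1a1, the form common outside adult muscle, rose by 1.25 and Eef1a2, the form of adult muscle and nerve, fell by 0.54.

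Mitochondrial translation factors moved in both directions. Among 13 genes that prepare or deliver charged tRNA in mitochondria or drive translation there, 5 rose and 4 fell. These are 38.5% and 30.8%, against 28.1% and 28.2% of all genes. With arrays scaled to the median of all probes 8 rose and 2 fell, where 3766 of all 9978 genes rose and 1606 fell. Without wild-type replicate 1 or transgenic replicate 3 only 3 rose. Tufm, the mitochondrial elongation factor that brings charged tRNA to the ribosome, rose by 1.39, Tsfm, its exchange factor, by 1.02 and the elongation factor gene Gfm1 by 0.91. The release factor gene Mtrf1 fell by 1.11. Under the reported processing the rises of Tufm, Tsfm and Gfm1 were larger than that of any mitochondrial synthetase.

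**Figure D4:**
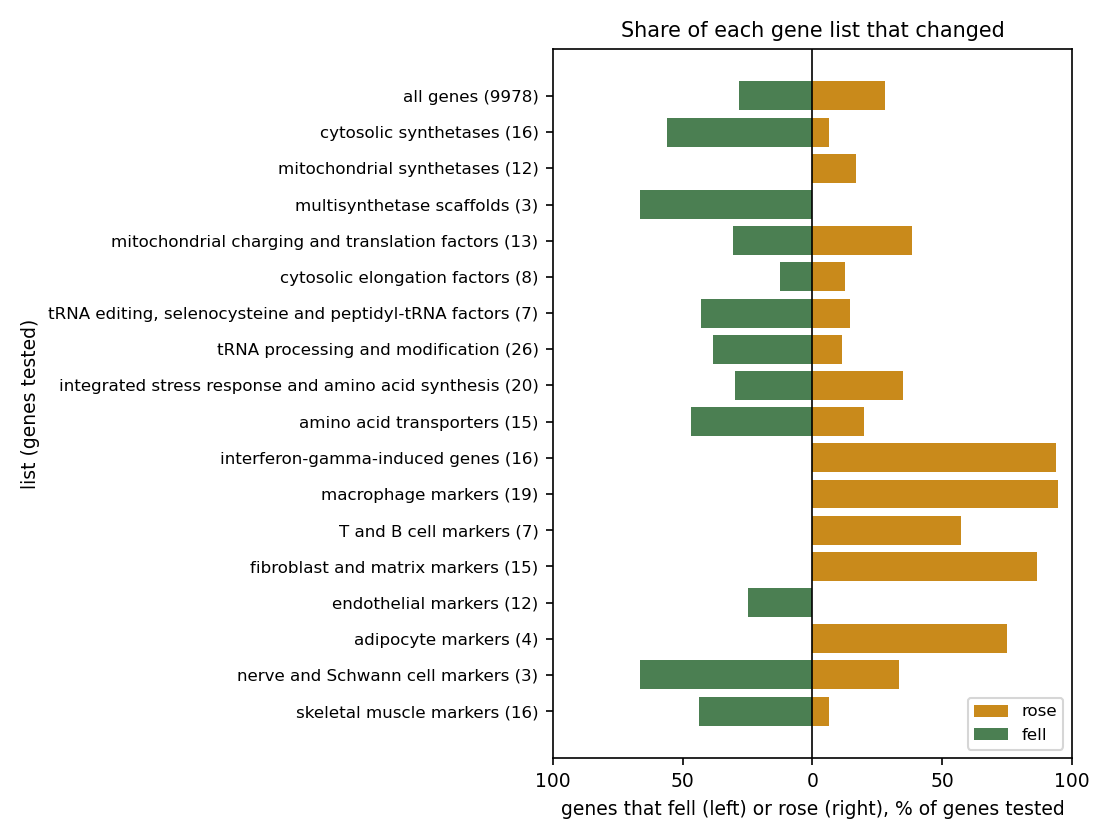
Share of the measured genes of each list that rose (right) or fell (left) at an adjusted p under 0.05, in percent, with the number of genes tested in parentheses. Cytosolic synthetases fell in 56.2% and rose in 6.25%, mitochondrial synthetases fell in 0% and rose in 16.7%, and all genes fell in 28.2% and rose in 28.1%.

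Genes of the integrated stress response and of amino acid synthesis gave 7 of 20 rising and 6 falling. These are 35% and 30%, near the 28.1% and 28.2% of all genes. With arrays scaled to the median of all probes 3 fell, where 1606 of all 9978 genes fell. Atf3, a stress-induced transcription factor gene, rose by 3.40, Eif2ak2, encoding the kinase PKR, by 1.71 and the serine synthesis gene Psat1 by 1.65. Chac1, which encodes a glutathione-degrading enzyme, fell by 3.33. Atf4 fell by 0.75 (adjusted p = 0.000976). This gene is outside the naming rule and is given because the promoter element above is named for its product. Asns and Mthfd2 of the same list, also outside that rule, rose by 1.44 and 0.80. Whether the fall of Atf4 bears on the synthetase genes was not tested. Amino acid transporter genes fell in 7 of 15 cases, or 4 with arrays scaled to the median of all probes, and rose in 3. As reported, 46.7% fell and 20% rose, against 28.2% and 28.1% of all genes. Of the 3 that rose, Slc1a4 and Slc7a7 were kept only through the group where they are high, being above background on 0 and 1 wild-type arrays. Of the 11 genes detected on all 6 arrays 1 rose. The cationic amino acid carrier gene Slc7a2 fell by 1.37, the large neutral amino acid carrier gene Slc43a1 by 1.09 and the carrier gene Slc38a4 by 1.05.

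The size of the class medians depended on the scaling, and their order did not. With arrays scaled to the median of all probes the median change of all genes was 0.19, that of the cytosolic genes -0.25 and that of the mitochondrial genes 0.39. Relative to all genes, the cytosolic median was then -0.45 and the mitochondrial median 0.20, against -0.37 and 0.12 as reported above. Under that scaling 7 cytosolic genes fell and 1 rose, and 7 mitochondrial genes rose and 0 fell. The counts over all genes shifted upward too: 3766 of 9978 rose and 1606 fell, against 2801 and 2812 as reported.

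**Figure D5:**
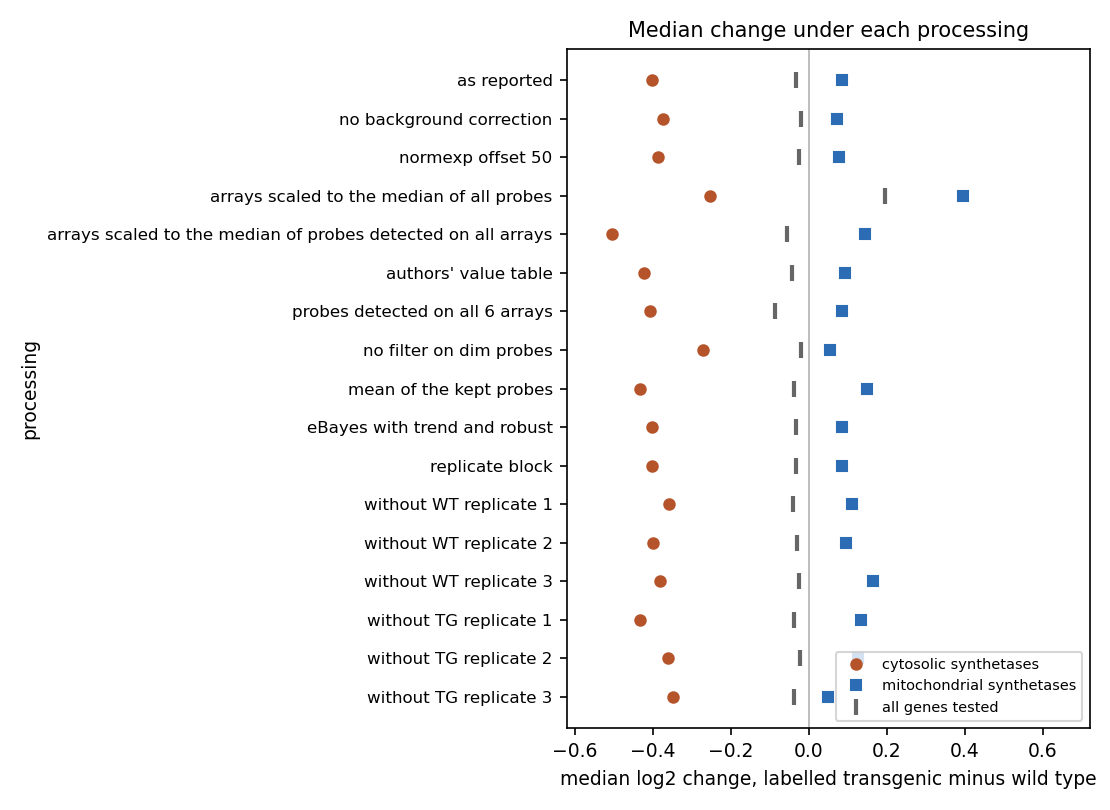
Median log2 change of cytosolic synthetases, mitochondrial synthetases and all genes tested, labelled transgenic minus wild type, under the reported processing and 16 alternatives. The cytosolic median lies below and the mitochondrial median above that of all genes in every setting shown.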

How the data were processed

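The deposited unnormalized table gives, per the file headers, an intensity and a detection p-value for each probe and array. GenomeStudio is named, without a version, in the submitters' processing notes. The authors' second deposited table holds intensity values on a linear scale, already background-subtracted and quantile normalized as its values show, and served as an alternative. The unnormalized intensities were corrected with normexp (offset 16, with the negative-control distribution recovered through the detection p-values), quantile normalized and log2-transformed with limma 3.58.1 in R 4.3.3. Probes were kept where at least 3 arrays had a detection p below 0.05 (17166 probes), those with 1 annotated symbol were used, and the brightest stood for its gene, which gave 9978 genes. Groups of 3 arrays were compared by lmFit and eBayes, two-sided, with Benjamini-Hochberg adjustment over all genes. SEs and intervals are from that fit. Every adjusted p is from limma, over genes, or over probes where stated. Intervals of pair differences use the pooled SD of 6 arrays. The number of arrays limits the precision.

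The members, lists and motifs were chosen with earlier results of these data known, and no set test was made. Named genes were all members, Ppargc1b and up to 4 called genes of largest change per list. Eef1e1, Atf4, Asns, Mthfd2, Ciita, Slc1a4, Itgam and Postn fall outside that rule and were named after their values were seen. Alternatives changed background, scaling, filter, probe summary, variance model, block and arrays. Probes without a symbol were not used.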

Additional observations from a re-analysis of the deposited data

How the results depend on the processing

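Over 16 alternatives the 28 members gave 447 values, of which 423 stayed on their side of the threshold, 16 lost the call and 8 gained it. The sign changed in 20 of the 423, in 9 members that passed under neither setting, and in 0 of the others. Genes that fell numbered 2812 of 9978 as reported and 1606 with arrays scaled to the median of all probes, where 3766 rose. The count of cytosolic genes that rose was 0 with arrays scaled to detected probes, where Gars did not pass. The count of mitochondrial genes that rose was 7 with arrays scaled to the median of all probes, and 1 with no filter on dim probes and with the replicate block. The cytosolic median change was -0.25 and -0.50 under these 2 scalings and -0.27 with no filter, where 3 cytosolic genes near background were added. The mitochondrial median was 0.39 with arrays scaled to the median of all probes. Leaving out 1 array, with probes and normalization kept, gave 7 to 9 cytosolic genes that fell, 1 to 2 mitochondrial genes that rose, cytosolic medians of -0.43 to -0.35 and mitochondrial medians of 0.048 to 0.16. The Ppargc1b change ranged from -1.50 to -1.12.

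Replicate numbers are shared by the groups but did not pair the arrays: deviations of arrays with the same number correlated at -0.05, 0.03 and -0.0022 across genes. With the replicate block 2673 genes rose and 2664 fell, and the cytosolic counts did not change (1 and 9). No fit with BeadChip as a block was made, since the file headers name none. Probes near background, such as those of Hars, limit what can be seen for dim members.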
